A study of Mus musculus with 12 samples.

Results

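Transcript levels of 44 genes that work at the DNA replication fork or in S phase were followed in GC-2 cells, a mouse line labelled as wild type, type B spermatogonia. The 44 genes were chosen by symbol for what their products do, and all 44 are among the 24770 genes of the deposited table. All 44 also passed the filter on low values, at least 1 FPKM (fragments scaled to transcript length and to the library's total, a level per length) in at least 3 of the 12 libraries, which kept 12311 genes. The libraries fall into 4 groups of 3 biological replicates. The DMSO normoxia group received the solvent DMSO and was cultured at normal oxygen, whose percentage the labels do not give. The DMSO hypoxia group received DMSO at 1% O2 with 5% CO2 and the balance N2. The MLN4924 normoxia and MLN4924 hypoxia groups received 1 µM MLN4924 under the same 2 conditions. Every group was harvested after 24 h.

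MLN4924 blocks the enzyme that activates NEDD8, a small protein that must be attached to cullins for cullin-RING ubiquitin ligases to work. One of these ligases removes the licensing factor Cdt1 during S phase, which keeps an origin from being used again. In a normal S phase the MCM2-7 ring is loaded on origins, the kinase Cdc7 with its activator Dbf4 and the factors Cdc45 and GINS turn it into a moving helicase, and the polymerases, clamp loader, single-strand binding protein and ligase copy the opened strands. Transcripts of many of these genes are made under the control of E2F factors around the entry into S phase. In bulk libraries a change in the share of cells in S phase and a change of RNA per cell cannot be told apart.

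The identity label was checked against marker genes. Of the germ line markers Kit read at most 0.04 FPKM, Ddx4 at most 0.06, Sohlh1 at most 0.05, Sycp1 at most 0.02 and Sycp3 at most 0.35, while Gfra1 read 1.14 to 6.23 and Uchl1 10.8 to 22.4. Of 7 listed markers of fibroblast or peritubular cells, 6 reached 1 FPKM in some library. Among them Col1a1 (365 to 739 FPKM), Col1a2 (338 to 636) and Acta2 (24.4 to 423) were high, while Thy1 read at most 0.11. Of the leukocyte markers Cd68 reached 3.69, while Csf1r read at most 0.19 and Itgam at most 0.01. Some markers of other testis cells were also read. Of Sertoli cells, Sox9 read 2.09 to 8.82, Gata4 3.7 to 9.12, Rhox5 1.25 to 3.87, Wt1 0 to 7.6 and Amh at most 0.43. Of Leydig cells, Star read 1.13 to 11.2, Cyp11a1 0.04 to 1.22, Hsd3b1 at most 0.14 and Cyp17a1 at most 0.03. Some listed markers are not in the table, which holds 5 of 10 for spermatogonia and 2 of 6 for spermatocytes and spermatids. It holds 5 of 6 for Sertoli cells, 4 of 6 for Leydig cells, 3 of 5 for leukocytes and 7 of 7 for fibroblast or peritubular cells. Only the last list could thus be read in full. Its markers summed to 1086 to 1427 FPKM per library, and those of spermatogonia to 12 to 25.9. The cells are called by the name of the line. The part of other cell types in the results was not tested. Each title and cell line label names GC-2, while a running number in the cell type label differs from library to library.

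One library stood apart from the rest. The summed FPKM was 633597 in DMSO hypoxia replicate 1 and 530452 to 557779 in the other 11, and the mean Spearman correlation of that replicate with its group was 0.926, against 0.949 to 0.98 elsewhere. Among the 44 genes its deviation from the other replicates of its group went with transcript length (Spearman's rho -0.722 over 44 genes of 1 library, a description across genes and not replicates), against -0.14 to 0.189 in the 9 libraries of the other groups. The relation was not particular to the 44, with a rho of -0.582 over 10838 tested genes in that library. Long transcripts read low in it: Pole, the catalytic subunit of polymerase epsilon, read 4.96 FPKM there and 17.8 and 15.7 in replicates 2 and 3. Uhrf1, which binds hemimethylated DNA behind the fork, read 24.5 against 70.96 and 74.2 FPKM. Short transcripts read high in it, as for Tipin at 127 against 76.05 and 74 FPKM. Counts are therefore given with and without this replicate where they move by over 1.5 times, since it also enters every comparison through the shared estimate of the spread between replicates. The part of RNA quality or depth in its readings was not tested.

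**Figure D1:**
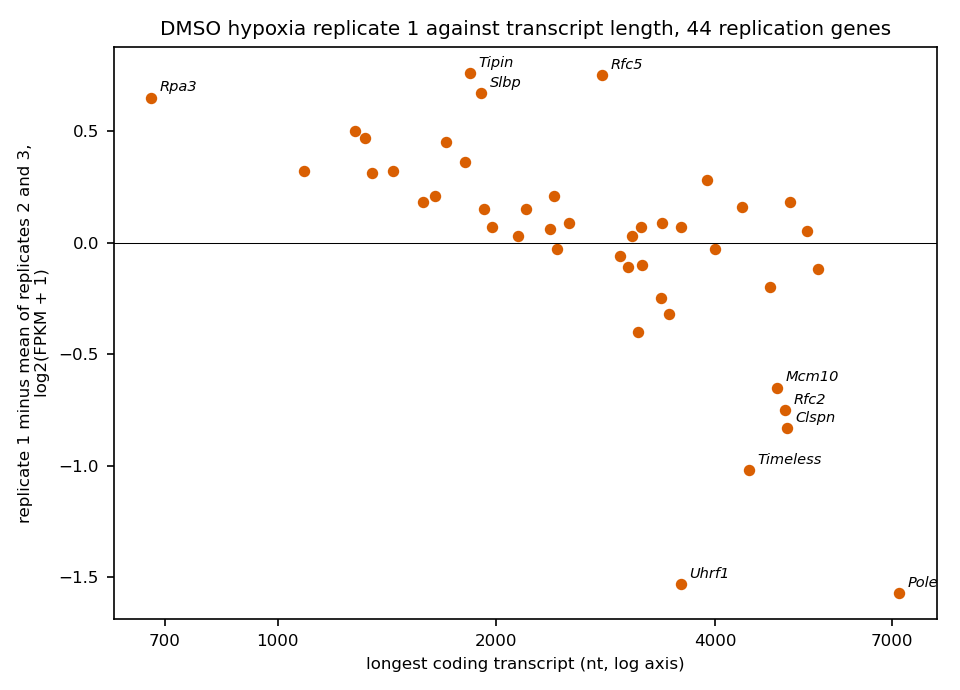
Deviation of DMSO hypoxia replicate 1 from the mean of replicates 2 and 3 (vertical axis, log2(FPKM + 1)) against the longest coding transcript of each of the 44 genes (horizontal log axis, nucleotides); each point is a gene. Points fall from left to right, from Rpa3 at 0.65 to Pole at -1.57.

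In DMSO, hypoxia raised 8 of the 44 genes and lowered 5, while 13.8% of all tested genes rose and 19.4% fell. Called here means a limma adjusted p under 0.05 on log2(FPKM + 1), with the Benjamini-Hochberg adjustment over all 12311 genes. With DMSO hypoxia replicate 1 left out, 11 rose and 5 fell, against 14.8% and 23.9%. Median-of-ratios scaling gave 13 higher and 4 lower, and the split over all genes moved from 1700 higher and 2393 lower to 2078 and 1920. The 44 genes were called either way in 29.5% of cases against 33.2% of all tested genes, a share near the background.

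MLN4924 in normoxia raised 7 of the 44 and lowered 7, against 9.33% and 10.7% of all tested genes. Median-of-ratios scaling gave 8 and 5. DMSO hypoxia replicate 1 is in neither group, yet without it in the fit 11 rose and 11 fell, against 16.0% and 18.2%. Leaving out any of the 6 libraries compared gave 3 or 4 higher and 1 to 4 lower.

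MLN4924 in hypoxia raised 14 of the 44 and lowered 1, Dbf4, while 12.2% of all tested genes rose and 13.3% fell. With DMSO hypoxia replicate 1 left out, 21 rose and 1 fell, against 16.8% and 15.7%. In MLN4924, hypoxia raised 20 of the 44 and lowered 3 (Gins3, Dbf4 and Rpa1), against 11.7% and 16.5% of all tested genes. Without that replicate 26 rose and 5 fell, against 17.9% and 24.7%. Hypoxia in MLN4924 called 52.3% of the 44 either way and 28.2% of all tested genes, and MLN4924 in hypoxia 34.1% and 25.5%. The median log2 difference of the 44 was 0.22 in the former comparison and that of all tested genes -0.05. In the other comparisons the medians of the 44 and of all tested genes were 0.04 and -0.08 for hypoxia in DMSO, 0.08 and -0.03 for MLN4924 in normoxia, and 0.14 and -0.01 for MLN4924 in hypoxia.

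The difference between the 2 hypoxia effects, that with MLN4924 minus that with DMSO, was tested as an interaction. It was called higher for Mcm2, Mcm4 and Lig1 and lower for Dbf4, against 0.958% and 0.926% of all tested genes. Without DMSO hypoxia replicate 1 it was higher for 9 of the 44 and lower for 1, against 3.30% and 2.21%. The 9 were Mcm2, Mcm3, Mcm4, Mcm5, Mcm6, Pold2, Rpa1, Lig1 and Chaf1b, and the 1 was Dbf4. Leaving out any library of the other 3 groups left no gene of the 44 called higher by limma, with 12 to 15 at an unadjusted p under 0.05, and kept the call of Dbf4. With all libraries 15 were higher and 2 lower at an unadjusted p under 0.05. The 2 hypoxia effects share no library, nor do the 2 MLN4924 effects, while each hypoxia effect shares a group with each MLN4924 effect.

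**Figure D2:**
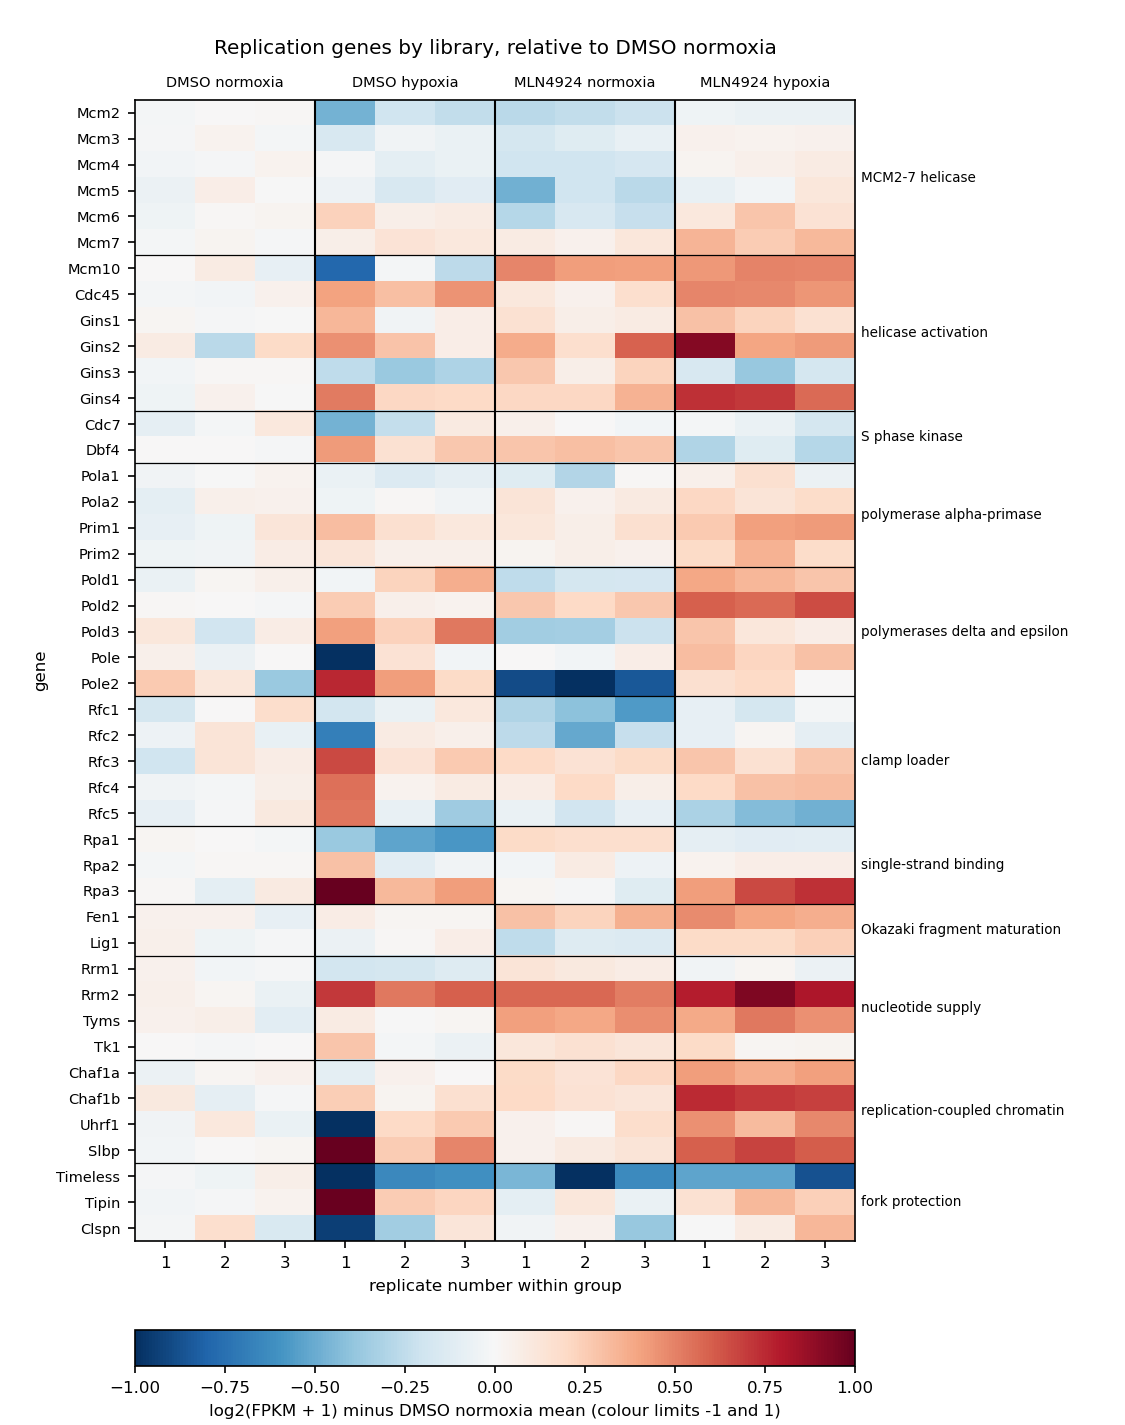
Levels of the 44 genes (rows, grouped by role) in the 12 libraries (columns, replicates 1 to 3 of each group), as log2(FPKM + 1) minus the DMSO normoxia mean, with colours limited at -1 and 1. The column of DMSO hypoxia replicate 1 differs from its neighbours in many rows, and the MLN4924 hypoxia columns are mostly above 0.

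Of the 44 genes, 31 were called in at least 1 comparison. The share of all tested genes called in at least 1, or in all 4 pairwise comparisons, was not counted. Each pairwise comparison alone called 20% to 33.2% of all tested genes, so these counts are not read as a trait of the 44. The 13 called in none were Gins1, Gins2, Cdc7, Pola1, Pole, Rfc2, Rfc3, Rfc4, Rfc5, Rpa2, Tk1, Uhrf1 and Clspn. Dbf4, Rpa1 and Rrm2 were called in all 4 pairwise comparisons. Hypoxia raised 6 genes both with and without MLN4924, namely Cdc45, Gins4, Pold3, Rpa3, Rrm2 and Slbp, which is 75% of the 8 in DMSO and 30% of the 20 in MLN4924. Over all tested genes the shared higher calls were 55.5% and 65.6% of the same 2 comparisons. It lowered Gins3 and Rpa1 in both, and moved Dbf4 up in DMSO and down in MLN4924. With DMSO hypoxia replicate 1 left out, 10 genes rose in both, adding Mcm7, Pold1, Tipin and Uhrf1, which is 90.9% of 11 and 38.5% of 26 (72.8% and 60.3% over all tested genes). Rrm1 then fell in both, and Mcm2 joined Dbf4 as opposite, falling in DMSO and rising in MLN4924. MLN4924 raised 6 genes at both oxygen levels, namely Chaf1a, Fen1, Pold2, Rpa1, Rrm2 and Tyms, which is 85.7% of the 7 in normoxia and 42.9% of the 14 in hypoxia (64.7% and 49.6% over all tested genes). Without that replicate 9 rose at both, adding Gins4, Mcm10 and Rrm1, which is 81.8% of 11 and 42.9% of 21 (66.7% and 63.8% over all tested genes). Mcm2 and Lig1 were called lower with MLN4924 in normoxia and higher with it in hypoxia, and Dbf4 the reverse, joined by Mcm4, in the direction of Mcm2, without that replicate. The normoxia calls behind these 3 were kept in 6 of 12 leave-outs for Mcm2 and Dbf4 and in 3 of 12 for Lig1.

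The fits that left out 1 library in turn show how firmly each call stands. All 12 kept 7 of the 13 calls for hypoxia in DMSO, 4 of the 14 for MLN4924 in normoxia (Pole2, Fen1, Rrm2 and Tyms), 9 of the 15 for MLN4924 in hypoxia and 15 of the 23 for hypoxia in MLN4924. For MLN4924 in normoxia, the calls of Rpa1, Lig1 and Chaf1a were kept in 3 of 12, with limma adjusted p up to 0.127, 0.162 and 0.143. Those of Pold2 and Mcm6 were kept in 7, and that of Rfc1 in 8. For hypoxia in MLN4924, Mcm3 and Rfc1 were kept in 5 of 12, Slbp in 6, Prim1 in 7 and Prim2 in 8. Rrm1 with MLN4924 in hypoxia was kept in 2, and Tipin with hypoxia in DMSO in 3. None of these calls changed direction in a leave-out. In normoxia with MLN4924, the call of Lig1 was lost with both other scalings, those of Mcm2 and Chaf1a with TPM scaling, and that of Mcm6 with median-of-ratios scaling.

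Promoters of several of the genes, which moved in different ways, are shown here to place these levels beside the sequence. RefSeq windows from 250 bases before to 50 after a start site (GRCm38.p6, a different build from the mm39 of the deposited values, used for sequence alone) were matched by symbol for 36 of the 44. Windows of Gins1, Gins2, Gins4, Mcm4, Pole, Prim2, Rfc2 and Tipin were not used here. The E2F motifs TTTCCCGC or TTTGGCGC stood on either strand in 10 of 36 (27.8%), against 1.8% of 27025 genes. The NF-Y motif CCAAT stood in 22 of 36 (61.1%, against 41.1% of genes) and the cell cycle motif TTTGAA in 7 (19.4%, against 20.2%). No motif contains another. With hypoxia in MLN4924, 7 of the 10 genes with an E2F match rose and 1 fell, and 10 of the 26 without rose and 2 fell. With MLN4924 in hypoxia the counts were 1 and 0 of the 10, and 12 and 1 of the 26. With MLN4924 in normoxia they were 0 and 3, and 7 and 3. For hypoxia in DMSO they were 1 and 1, and 5 and 4, and for the interaction 0 and 0, and 2 and 1. Of all tested genes 11.7% rose and 16.5% fell with hypoxia in MLN4924, and 9.33% and 10.7% with MLN4924 in normoxia. Whether the motif bears on these calls was not tested. These matches are letters in a window, with no binding measured.

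The 200 bases before the start site are printed 5′ to 3′ on the gene's strand, with matches to the E2F and NF-Y motifs on either strand in capitals. Mcm5 at chr8:75109309-75109508 (plus strand), Mcm6 at chr1:128359706-128359905 (minus strand) and Mcm7 at chr5:138171884-138172083 (minus strand) are helicase subunits that rose with hypoxia in MLN4924. Gins3 at chr8:95633359-95633558 (plus strand) holds an E2F match and fell with hypoxia in both. Pola1 at chrX:93632156-93632355 (minus strand) holds one and was called in no comparison. Dbf4 at chr5:8422717-8422916 (minus strand) and Rrm2 at chr12:24708054-24708253 (plus strand) hold none and were called in all 4 pairwise comparisons.
Mcm5: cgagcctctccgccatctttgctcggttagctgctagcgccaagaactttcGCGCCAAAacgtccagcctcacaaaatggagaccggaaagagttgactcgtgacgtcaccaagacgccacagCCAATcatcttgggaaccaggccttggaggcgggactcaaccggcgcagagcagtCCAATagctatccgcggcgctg
Mcm6: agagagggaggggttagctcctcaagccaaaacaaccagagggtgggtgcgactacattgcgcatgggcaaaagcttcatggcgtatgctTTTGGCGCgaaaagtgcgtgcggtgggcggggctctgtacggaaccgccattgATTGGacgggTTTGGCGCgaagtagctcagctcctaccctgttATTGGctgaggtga
Mcm7: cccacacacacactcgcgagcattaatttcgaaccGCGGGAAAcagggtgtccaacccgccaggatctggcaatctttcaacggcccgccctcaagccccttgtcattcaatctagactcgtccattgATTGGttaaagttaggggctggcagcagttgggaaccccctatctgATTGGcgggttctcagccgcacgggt
Gins3: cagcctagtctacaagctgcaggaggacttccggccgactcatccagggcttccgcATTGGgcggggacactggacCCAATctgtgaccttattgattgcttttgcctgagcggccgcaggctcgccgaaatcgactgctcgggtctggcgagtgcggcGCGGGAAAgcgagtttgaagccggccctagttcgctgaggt
Pola1: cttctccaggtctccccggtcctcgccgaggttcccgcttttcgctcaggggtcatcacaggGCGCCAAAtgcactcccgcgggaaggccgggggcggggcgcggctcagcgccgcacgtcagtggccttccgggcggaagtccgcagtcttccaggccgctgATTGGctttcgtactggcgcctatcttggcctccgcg
Dbf4: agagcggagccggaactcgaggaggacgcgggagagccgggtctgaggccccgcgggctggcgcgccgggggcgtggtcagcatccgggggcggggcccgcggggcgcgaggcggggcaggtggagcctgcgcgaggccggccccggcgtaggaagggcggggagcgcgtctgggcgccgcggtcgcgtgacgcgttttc
Rrm2: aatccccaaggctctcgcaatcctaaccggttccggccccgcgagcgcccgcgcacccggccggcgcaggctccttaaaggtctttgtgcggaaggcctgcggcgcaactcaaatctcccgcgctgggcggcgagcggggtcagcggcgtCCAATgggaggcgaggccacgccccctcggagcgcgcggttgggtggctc
The Mcm6 window holds 2 E2F and 2 NF-Y matches, and that of Dbf4 holds no match of either kind and no base in capitals.

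The products of the 6 MCM2-7 genes form the ring of the helicase. Of these genes 3, Mcm4, Mcm5 and Mcm6, fell with MLN4924 at normal oxygen and rose when hypoxia was added to it. Both differences share the MLN4924 normoxia libraries, so a low reading there enters both calls. With all libraries the interaction was called for Mcm4, and not for Mcm5 (0.43) or Mcm6 (0.28, log2). MLN4924 in normoxia lowered 4 of 6 (Mcm2, Mcm4, Mcm5 and Mcm6), and hypoxia in MLN4924 raised 5 of 6, all but Mcm2. Of all tested genes 10.7% fell in the first comparison and 11.7% rose in the second. With DMSO hypoxia replicate 1 left out, 5 of the 6 fell and 6 rose, against 18.2% and 17.9% of all tested genes. Without DMSO normoxia replicate 3 limma called none of the 6 for MLN4924 in normoxia, with 4 lower at an unadjusted p under 0.05, and over all leave-outs hypoxia in MLN4924 raised 3 to 6. Median-of-ratios and TPM scaling gave 3 lower in the first comparison and 6 and 4 higher in the second, with the direction of every called gene kept. The summed level of the 6 was 534 ± 10.1 FPKM (SD, n = 3) in DMSO normoxia, 514 ± 1.25 in DMSO hypoxia, 472 ± 13.3 in MLN4924 normoxia and 568 ± 7.39 in MLN4924 hypoxia, so that no group overlapped another.

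Mcm2 read 126.5, 129 and 129 FPKM in DMSO normoxia, 92.25, 112 and 108 in DMSO hypoxia, 106, 108 and 110.08 in MLN4924 normoxia and 124, 122 and 122 in MLN4924 hypoxia, in the order of replicates 1 to 3 here and below. DMSO normoxia was above every other group, MLN4924 hypoxia came next, and the 2 groups with a single treatment overlapped each other at the bottom. The log2 difference was -0.30 ± 0.06 (SE, limma adjusted p = 0.00491) for hypoxia in DMSO and -0.24 ± 0.06 (SE, limma adjusted p = 0.0228) for MLN4924 in normoxia. In hypoxia MLN4924 moved it by 0.25 ± 0.06 (SE, limma adjusted p = 0.0191), and the interaction was 0.49 ± 0.09 (SE, limma adjusted p = 0.0267). Without DMSO hypoxia replicate 1 the interaction was 0.41 ± 0.04 (SE, limma adjusted p = 7.36e-04).

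Mcm4 read 77.7, 78.5 and 80.9 FPKM in DMSO normoxia, 78.4, 73.9 and 75.4 in DMSO hypoxia, 68.7, 68.7 and 70.1 in MLN4924 normoxia and 80.6, 82.1 and 83.7 in MLN4924 hypoxia. MLN4924 normoxia lay below the other 3 groups, and the hypoxia groups each overlapped DMSO normoxia but not each other. The log2 difference was -0.19 ± 0.04 (SE, limma adjusted p = 0.0102) for MLN4924 in normoxia and 0.24 ± 0.04 (SE, limma adjusted p = 0.00188) for hypoxia in MLN4924, with an interaction of 0.30 ± 0.06 (SE, limma adjusted p = 0.0349). Mcm5 read 78.2, 85.5 and 81.4 FPKM in DMSO normoxia, 78.8, 73.1 and 75.3 in DMSO hypoxia, 58.1, 71.1 and 67.5 in MLN4924 normoxia and 77.5, 80.2 and 88.3 in MLN4924 hypoxia. MLN4924 normoxia was again lowest with no overlap, and the other 3 groups overlapped. Mcm5 differed by -0.32 ± 0.08 (SE, limma adjusted p = 0.0181) with MLN4924 in normoxia and by 0.32 ± 0.08 (SE, limma adjusted p = 0.0125) with hypoxia in MLN4924.

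Mcm6 had means of 117 ± 2.95 FPKM in DMSO normoxia, 127 ± 8.42 in DMSO hypoxia, 99.8 ± 4.18 in MLN4924 normoxia and 132 ± 8.25 in MLN4924 hypoxia (SD, n = 3). Its log2 difference was 0.40 ± 0.06 (SE, limma adjusted p = 0.00107) for hypoxia in MLN4924, the widest of the 6. Mcm7, by contrast with Mcm2, did not fall in any comparison: its means were 82 ± 1.58, 88 ± 2.33, 86.8 ± 2.18 and 102 ± 3.19 FPKM in the same order. It rose by 0.21 ± 0.04 (SE, limma adjusted p = 0.00718) with MLN4924 in hypoxia and by 0.23 ± 0.04 (SE, limma adjusted p = 0.00381) with hypoxia in MLN4924. Its exons share 321 bases with Ap4m1 (median 6.96 FPKM) and 64 with Cops6 (median 56.3), both on the opposite strand. Whether counting used strand is not given in the sources used here. With all libraries Mcm3 was called in 1 comparison, hypoxia in MLN4924, at 0.16 ± 0.05 (SE, limma adjusted p = 0.0334).

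**Figure D3:**
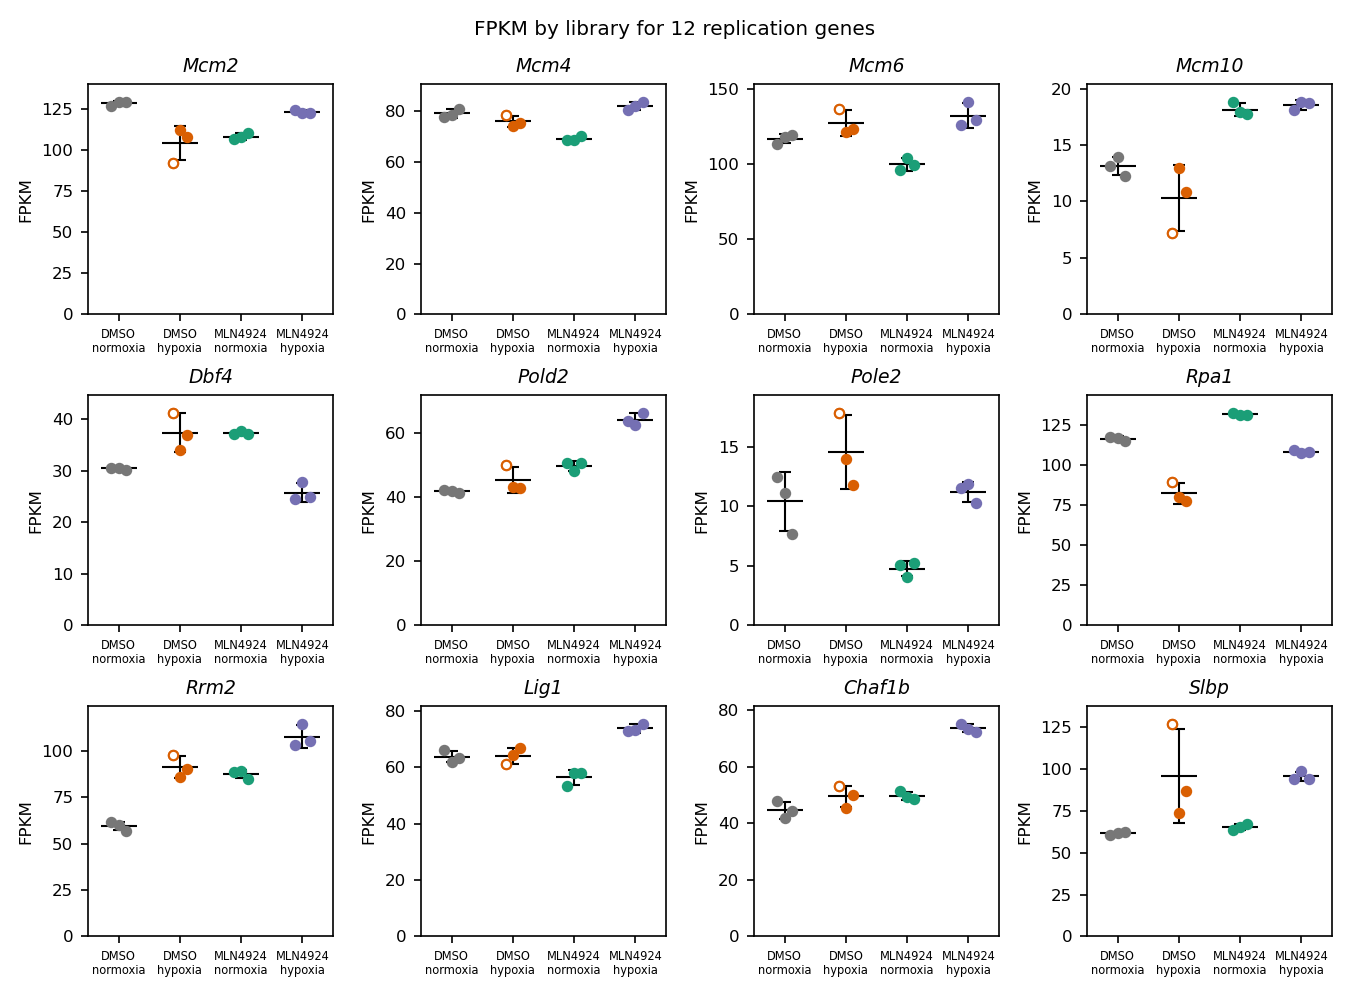
FPKM of 12 of the genes in each library (points), with the group mean (bar) and SD (whiskers) of 3 replicates; the open point is DMSO hypoxia replicate 1 and each axis starts at 0. Pole2 lies between 4.03 and 5.23 in MLN4924 normoxia, and Dbf4 is high in both groups with a single treatment and lowest in MLN4924 hypoxia.

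Helicase activation did not move as 1 unit. Cdc45, which joins MCM2-7 and GINS in the active helicase, rose with hypoxia by 0.38 ± 0.05 (SE, limma adjusted p = 4.96e-04) in DMSO and by 0.36 ± 0.05 (SE, limma adjusted p = 8.07e-04) in MLN4924, from 32.8 ± 0.87 to 43 ± 2.24 and from 35.3 ± 1.53 to 45.7 ± 0.895 FPKM (SD, n = 3). The interaction was -0.02 (adjusted p = 0.933 by limma). Its exons share 209 bases with Ufd1 (median 35.9 FPKM) on the opposite strand. Of the 4 GINS subunits, Gins4 rose with hypoxia (0.31 in DMSO and 0.42 in MLN4924, log2) and Gins3 fell (-0.31 and -0.42). Their limma adjusted p-values were 0.0223 and 0.00556 for Gins4 and 0.0191 and 0.00489 for Gins3. Gins4 means were 41.6 ± 1.22, 52 ± 6.87, 49.8 ± 2.91 and 66.9 ± 4.09 FPKM in the group order above, and those of Gins3 7.74 ± 0.129, 6.03 ± 0.285, 8.95 ± 0.742 and 6.43 ± 0.622. Subunits of 1 complex thus went in opposite directions, with Gins1 and Gins2 called in no comparison. Gins2 shares 2758 exon bases with Gse1 (median 2.5 FPKM) on the opposite strand.

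Mcm10, which helps the helicase open the origin, read 13.15, 13.9 and 12.3 FPKM in DMSO normoxia, 7.2, 12.95 and 10.8 in DMSO hypoxia, 18.8, 17.9 and 17.7 in MLN4924 normoxia and 18.1, 18.85 and 18.75 in MLN4924 hypoxia. Both MLN4924 groups were above both DMSO groups, and oxygen levels overlapped within each solvent or drug. MLN4924 in hypoxia raised Mcm10 by 0.82 ± 0.15 (SE, limma adjusted p = 0.00323), and by 0.61 ± 0.08 (SE, limma adjusted p = 3.03e-04) without DMSO hypoxia replicate 1, which was the lowest of all libraries. In normoxia the difference was 0.44 ± 0.15 (SE, limma adjusted p = 0.0707), and 0.44 ± 0.07 (SE, limma adjusted p = 9.62e-04) without that replicate.

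Dbf4, the activator of the S phase kinase, rose with either treatment alone and fell when the other was added. It read 30.6, 30.6 and 30.2 FPKM in DMSO normoxia, 41.3, 33.96 and 37.05 in DMSO hypoxia, 37.1, 37.8 and 37.1 in MLN4924 normoxia and 24.6, 27.9 and 24.9 in MLN4924 hypoxia. Either treatment alone put all 3 libraries above the controls, and both together put all 3 below them. The log2 difference was 0.28 ± 0.07 (SE, limma adjusted p = 0.014) for hypoxia in DMSO and 0.28 ± 0.07 (SE, limma adjusted p = 0.0213) for MLN4924 in normoxia. In the presence of the other treatment it was -0.52 ± 0.07 (SE, limma adjusted p = 6.54e-04) for MLN4924 and -0.52 ± 0.07 (SE, limma adjusted p = 5.65e-04) for hypoxia. The interaction was -0.80 ± 0.10 (SE, limma adjusted p = 0.00513), and -0.87 to -0.73 over the 12 leave-outs, each of which kept the call. Cdc7, the kinase itself, was called in no comparison, with means between 7.17 and 8.36 FPKM.

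Polymerase alpha and primase lay down primers. Of the 4 genes, Prim1 and Prim2, the primase subunits, rose with hypoxia in MLN4924 (0.26 and 0.20, log2; limma adjusted p = 0.0287 and 0.0292). Pola2, the accessory subunit, rose with MLN4924 in hypoxia (0.20, limma adjusted p = 0.0273). Pola1, the catalytic subunit, read 18.1 to 25 FPKM over the 12 libraries and was called in none.

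Polymerases delta and epsilon extend the lagging and the leading strand. With hypoxia in MLN4924, 4 of their 5 genes rose, and 5 of 5 without DMSO hypoxia replicate 1. Of all tested genes 11.7% rose, and 17.9% without that replicate. Pole2, the second subunit of polymerase epsilon, had the widest change of the 44. It read 12.4, 11.1 and 7.66 FPKM in DMSO normoxia, 17.9, 13.98 and 11.8 in DMSO hypoxia, 5.04, 4.03 and 5.23 in MLN4924 normoxia and 11.5, 11.8 and 10.25 in MLN4924 hypoxia. MLN4924 normoxia was below every other group with no overlap, and the other 3 groups overlapped. MLN4924 in normoxia lowered it by 0.97 ± 0.18 (SE, limma adjusted p = 0.00377) on the log2 scale, and hypoxia in MLN4924 raised it by 1.09 ± 0.18 (SE, limma adjusted p = 0.00144). Its interaction was 0.63 ± 0.25 (SE, limma adjusted p = 0.282), so the 2 hypoxia effects were not shown to differ. Pole itself was called in none with all libraries, and rose with hypoxia in MLN4924 by 0.26 ± 0.06 (SE, limma adjusted p = 0.00594) without the replicate named above.

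Pold1, the catalytic subunit of polymerase delta, read 23.15, 24.7 and 25.3 FPKM in DMSO normoxia, 23.9, 28.6 and 31.6 in DMSO hypoxia, 20.2, 21.5 and 21.5 in MLN4924 normoxia and 32.1, 30.8 and 29.7 in MLN4924 hypoxia. MLN4924 normoxia was lowest and MLN4924 hypoxia was above both normoxia groups, while DMSO hypoxia overlapped DMSO normoxia through replicate 1. Hypoxia in MLN4924 raised Pold1 by 0.53 ± 0.09 (SE, limma adjusted p = 0.00159). In DMSO the difference was 0.19 ± 0.09 (SE, limma adjusted p = 0.131), and 0.29 ± 0.06 (SE, limma adjusted p = 0.00378) without replicate 1. Pold2, an accessory subunit, read 42.03, 41.8 and 41.4 FPKM in DMSO normoxia, 49.9, 43.2 and 42.9 in DMSO hypoxia, 50.6, 47.9 and 50.4 in MLN4924 normoxia and 63.55, 62.3 and 66.3 in MLN4924 hypoxia. DMSO normoxia was lowest, MLN4924 hypoxia highest, and the 2 single treatments overlapped. MLN4924 raised Pold2 by 0.25 ± 0.06 (SE, limma adjusted p = 0.0191) in normoxia and by 0.49 ± 0.06 (SE, limma adjusted p = 3.32e-04) in hypoxia. Pold3, another accessory subunit, rose with hypoxia by 0.39 ± 0.11 (SE, limma adjusted p = 0.0181) in DMSO and 0.45 ± 0.11 (SE, limma adjusted p = 0.00965) in MLN4924.

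Of the 5 clamp loader genes, which place the sliding clamp PCNA on DNA, Rfc1 alone was called with all libraries. Rfc1, the large subunit, read 14.1, 16.1 and 18.2 FPKM in DMSO normoxia, 14.02, 15.3 and 17.35 in DMSO hypoxia, 12.8, 11.8 and 10.5 in MLN4924 normoxia and 15.15, 14.1 and 15.8 in MLN4924 hypoxia. MLN4924 normoxia lay below the other 3 groups, which overlapped. MLN4924 in normoxia moved Rfc1 by -0.43 ± 0.11 (SE, limma adjusted p = 0.0209) and hypoxia in MLN4924 by 0.34 ± 0.11 (SE, limma adjusted p = 0.0439). The small subunits Rfc2 and Rfc4 rose and Rfc5 fell with hypoxia in MLN4924 without DMSO hypoxia replicate 1 (0.29, 0.16 and -0.29, log2; limma adjusted p = 0.0168, 0.0275 and 0.0174). Exons of Rfc5 share 499 bases with Wsb2 (median 42.4 FPKM), and those of Rfc4 194 with Eif4a2 (median 27.1), both on the opposite strand.

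The 3 subunits of replication protein A, which coats single-stranded DNA, also split. Rpa1, the large subunit, read 118, 117 and 115 FPKM in DMSO normoxia, 89.8, 80.4 and 77.5 in DMSO hypoxia, 133, 131 and 131 in MLN4924 normoxia and 109, 108 and 108.5 in MLN4924 hypoxia. None of the 4 groups overlapped: DMSO hypoxia was lowest, then MLN4924 hypoxia, DMSO normoxia and MLN4924 normoxia. Hypoxia changed Rpa1 by -0.50 ± 0.05 (SE, limma adjusted p = 7.82e-05) in DMSO and by -0.28 ± 0.05 (SE, limma adjusted p = 0.00336) in MLN4924. MLN4924 raised it by 0.18 ± 0.05 (SE, limma adjusted p = 0.0426) in normoxia and by 0.39 ± 0.05 (SE, limma adjusted p = 5.31e-04) in hypoxia. The interaction was 0.22 ± 0.08 (SE, limma adjusted p = 0.216), and 0.28 ± 0.04 (SE, limma adjusted p = 0.00306) without DMSO hypoxia replicate 1.

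Rpa3, the smallest subunit, read 43.01, 39.75 and 45.55 FPKM in DMSO normoxia, 88.05, 53.8 and 57.5 in DMSO hypoxia, 43.2, 42.4 and 39.1 in MLN4924 normoxia and 57.5, 68.2 and 71.3 in MLN4924 hypoxia. Every hypoxia library was above every normoxia library, and DMSO and MLN4924 overlapped at each oxygen level. Hypoxia raised Rpa3 by 0.59 ± 0.16 (SE, limma adjusted p = 0.0169) in DMSO, where replicate 1 was the highest, by 0.37 ± 0.09 (SE, limma adjusted p = 0.00997) without that replicate, and by 0.64 ± 0.16 (SE, limma adjusted p = 0.0128) in MLN4924. Rpa2 was called in no comparison and read 41.2 to 54.5 FPKM.

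Okazaki fragment maturation is represented by Fen1, the nuclease that removes flaps, and Lig1, the ligase that seals the nick. Lig1 read 66.02, 61.95 and 63.4 FPKM in DMSO normoxia, 61.3, 64.2 and 66.8 in DMSO hypoxia, 53.4, 58.1 and 57.9 in MLN4924 normoxia and 72.8, 73.1 and 75.5 in MLN4924 hypoxia. MLN4924 normoxia was lowest and MLN4924 hypoxia highest with no overlap, and the 2 DMSO groups overlapped between them. MLN4924 moved Lig1 by -0.17 ± 0.05 (SE, limma adjusted p = 0.0429) in normoxia and by 0.20 ± 0.05 (SE, limma adjusted p = 0.0196) in hypoxia, with an interaction of 0.38 ± 0.08 (SE, limma adjusted p = 0.0365). The normoxia call of Lig1 was kept in 3 of 12 leave-outs and lost with TPM scaling (limma adjusted p = 0.119) and median-of-ratios scaling (limma adjusted p = 0.0832). Hypoxia in MLN4924 raised it by 0.38 ± 0.05 (SE, limma adjusted p = 5.19e-04). Fen1 rose with MLN4924 by 0.29 ± 0.06 (SE, limma adjusted p = 0.00555) in normoxia and 0.37 ± 0.06 (SE, limma adjusted p = 0.00112) in hypoxia, from means of 34.9 ± 1.79 and 35.9 ± 0.843 to 42.9 ± 2.01 and 46.8 ± 1.87 FPKM. Its exons share 1909 bases with Gm10143 (median 0.925 FPKM) and 130 with Tmem258 (median 148), both on the opposite strand.

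Of the 4 nucleotide supply genes, Rrm2 and Tyms rose with MLN4924 in normoxia, joined by Rrm1 in hypoxia, and Tk1 was called in none. With DMSO hypoxia replicate 1 left out of the fit, all 4 rose with MLN4924 in normoxia, where 16.0% of all tested genes rose. Rrm2, the regulated small subunit of ribonucleotide reductase, read 61.4, 60.05 and 56.8 FPKM in DMSO normoxia, 97.6, 85.9 and 90.3 in DMSO hypoxia, 88.7, 89.1 and 84.98 in MLN4924 normoxia and 103, 115 and 105 in MLN4924 hypoxia. DMSO normoxia was lowest, MLN4924 hypoxia highest, and the 2 single treatments overlapped. Hypoxia raised Rrm2 by 0.61 ± 0.06 (SE, limma adjusted p = 5.35e-05) in DMSO and 0.29 ± 0.06 (SE, limma adjusted p = 0.00589) in MLN4924. MLN4924 raised it by 0.55 ± 0.06 (SE, limma adjusted p = 1.80e-04) in normoxia and 0.23 ± 0.06 (SE, limma adjusted p = 0.0197) in hypoxia. The interaction was -0.32 ± 0.09 (SE, limma adjusted p = 0.114).

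Tyms, the enzyme that makes thymidylate, read 85.2, 86.2 and 76.9 FPKM in DMSO normoxia, 87.4, 82.4 and 83.7 in DMSO hypoxia, 109.94, 108 and 114 in MLN4924 normoxia and 108, 119.54 and 114 in MLN4924 hypoxia. Both MLN4924 groups were above both DMSO groups, and oxygen levels overlapped within each. MLN4924 raised Tyms by 0.42 ± 0.06 (SE, limma adjusted p = 6.69e-04) in normoxia and 0.42 ± 0.06 (SE, limma adjusted p = 5.65e-04) in hypoxia. Rrm1, the large subunit of ribonucleotide reductase, went the other way from Rrm2 with hypoxia in DMSO, at -0.16 ± 0.04 (SE, limma adjusted p = 0.0162). Tk1, the salvage kinase for thymidine, read 91.05 to 115 FPKM.

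Of the 4 genes that rebuild chromatin behind the fork, Chaf1a, Chaf1b and Uhrf1 had their highest means with both treatments. Slbp had similar means in DMSO hypoxia and MLN4924 hypoxia with all libraries (95.6 and 95.4 FPKM). Without DMSO hypoxia replicate 1 its DMSO hypoxia mean was 79.9, so that it too was highest with both. The summed level of the 4 was 203 ± 2.31 FPKM in DMSO normoxia, 235.9 ± 10 in DMSO hypoxia, 219.6 ± 5.57 in MLN4924 normoxia and 298 ± 3.52 in MLN4924 hypoxia (SD, n = 3). Chaf1b, a subunit of the histone chaperone CAF-1, read 47.9, 41.8 and 44.2 FPKM in DMSO normoxia, 52.99, 45.55 and 49.95 in DMSO hypoxia, 51.3, 49.3 and 48.4 in MLN4924 normoxia and 75.2, 73.3 and 72.3 in MLN4924 hypoxia. MLN4924 hypoxia stood above all other libraries, and DMSO hypoxia overlapped both normoxia groups. MLN4924 raised Chaf1b by 0.57 ± 0.07 (SE, limma adjusted p = 2.23e-04) in hypoxia, and hypoxia raised it by 0.56 ± 0.07 (SE, limma adjusted p = 2.01e-04) in MLN4924. The interaction was 0.41 ± 0.09 (SE, limma adjusted p = 0.0614), and 0.46 ± 0.08 (SE, limma adjusted p = 0.0106) without DMSO hypoxia replicate 1. Chaf1a, its partner, rose with MLN4924 in hypoxia by 0.41 ± 0.05 (SE, limma adjusted p = 3.73e-04). Exons of Chaf1a share 4648 bases with Ubxn6 (median 19.5 FPKM) on the opposite strand, and the part of Ubxn6 in its readings was not tested.

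Slbp, which binds the stem-loop at the end of histone transcripts, read 60.4, 61.8 and 62.15 FPKM in DMSO normoxia, 127, 73.3 and 86.5 in DMSO hypoxia, 63.2, 65.3 and 67.3 in MLN4924 normoxia and 93.6, 98.5 and 94.02 in MLN4924 hypoxia. Every hypoxia library was above every normoxia library, with replicate 1 of DMSO hypoxia the highest. Hypoxia raised Slbp by 0.59 ± 0.15 (SE, limma adjusted p = 0.0129) in DMSO, by 0.37 ± 0.06 (SE, limma adjusted p = 0.00123) without that replicate, and by 0.54 ± 0.15 (SE, limma adjusted p = 0.0222) in MLN4924. MLN4924 in hypoxia moved Slbp by 0.03 (limma adjusted p = 0.89), and by 0.26 (limma adjusted p = 0.011) without that replicate. Uhrf1 changed sign with that replicate: hypoxia in DMSO gave -0.28 ± 0.32 (SE, limma adjusted p = 0.532) with it and 0.23 ± 0.07 (SE, limma adjusted p = 0.0305) without it. In MLN4924, hypoxia moved Uhrf1 by 0.34 ± 0.32 (SE, limma adjusted p = 0.489) with it in the fit and 0.34 ± 0.06 (SE, limma adjusted p = 0.00212) without.

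Fork protection was represented by Timeless and Tipin, which bind each other, and the checkpoint mediator Clspn. Timeless read 15.04, 14.6 and 15.8 FPKM in DMSO normoxia, 4.14, 9.33 and 9.54 in DMSO hypoxia, 10.8, 6.9 and 9.39 in MLN4924 normoxia and 10.2, 10.2 and 7.83 in MLN4924 hypoxia. DMSO normoxia was above every other group, and the other 3 overlapped. Hypoxia in DMSO lowered Timeless by 0.97 ± 0.25 (SE, limma adjusted p = 0.0147) on the log2 scale, and by 0.63 ± 0.16 (SE, limma adjusted p = 0.0108) without DMSO hypoxia replicate 1, a change over 1.5 times smaller. MLN4924 in normoxia moved it by -0.71 ± 0.25 (SE, limma adjusted p = 0.0776), and the adjusted p was 0.00378 by limma without that replicate. Tipin went up with hypoxia in DMSO where Timeless went down, by 0.49 ± 0.17 (SE, limma adjusted p = 0.0494), and by 0.23 ± 0.07 (SE, limma adjusted p = 0.0216) without the replicate. The Tipin call was kept in 3 of 12 leave-outs, those of the DMSO hypoxia libraries, with limma adjusted p up to 0.114 in the rest. Clspn was called in no comparison.

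**Figure D4:**
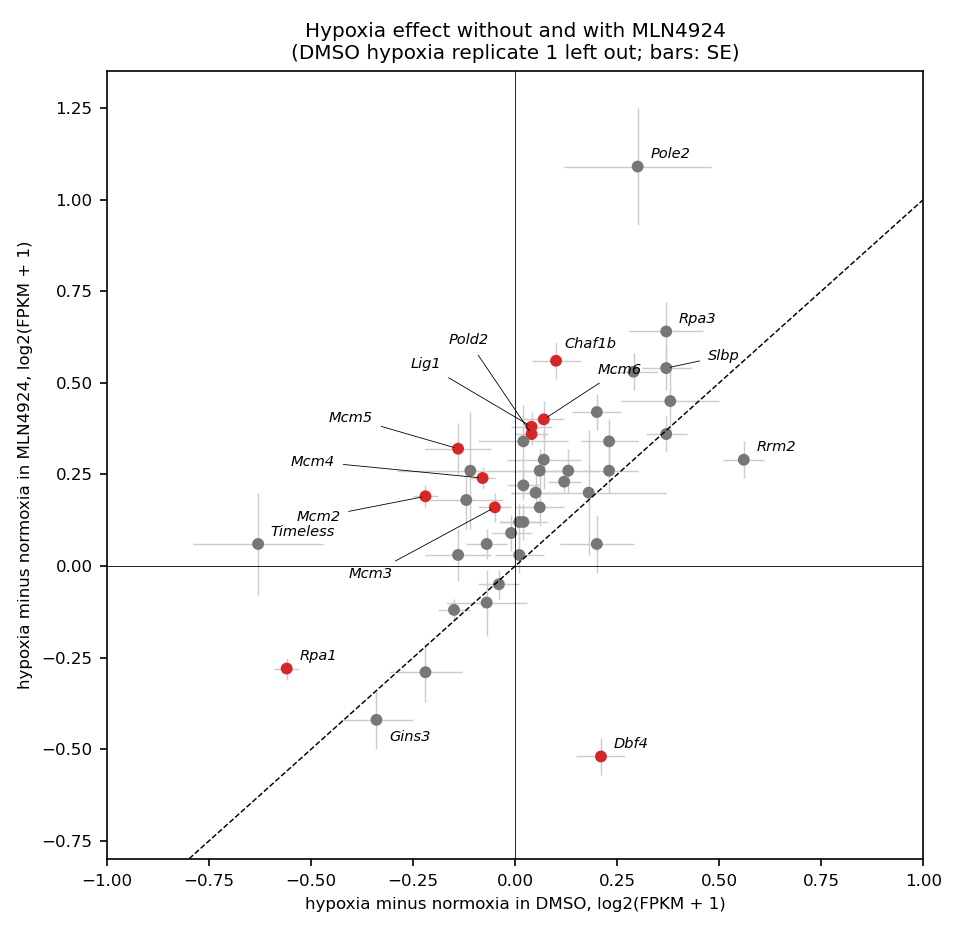
Effect of hypoxia in MLN4924 (vertical axis) against its effect in DMSO (horizontal axis) for the 44 genes, as log2(FPKM + 1) differences with SE bars, without DMSO hypoxia replicate 1; the dashed line marks equal effects and red points are genes with a called interaction. Mcm2, Mcm3, Mcm4, Mcm5 and Mcm6 lie above the line, and Dbf4 lies far below it at 0.21 and -0.52.

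Levels per length ranged widely within the 44. In DMSO normoxia Mcm2 (128 ± 1.47 FPKM), Rpa1 (117 ± 1.44) and Mcm6 (117 ± 2.95) were highest, and Rpa1 and Mcm6 did not differ beyond their spread. Gins3 (7.74 ± 0.129) and Cdc7 (8.31 ± 0.647) were lowest, and their libraries overlapped (SD, n = 3). The summed level of the 44 was 2029 ± 14.4 FPKM in DMSO normoxia, 2147 ± 111 in DMSO hypoxia, 2093 ± 20.8 in MLN4924 normoxia and 2409 ± 13.9 in MLN4924 hypoxia. MLN4924 hypoxia was above all other libraries in this sum, and the 3 others lay closer together.

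Replication-dependent histone transcripts were lowest in the group where the 44 genes summed highest. The 61 symbols of replication-dependent histones in the table, whose transcripts mostly end in a stem-loop and not a poly(A) tail, summed to 176.9 ± 4.47 FPKM in DMSO normoxia, 144 ± 27.1 in DMSO hypoxia, 156 ± 13.6 in MLN4924 normoxia and 74.8 ± 6.81 in MLN4924 hypoxia (SD, n = 3). MLN4924 hypoxia was below every other library. Of the 35 that passed the filter on low values, none rose and 11 fell with hypoxia in MLN4924, and none rose and 8 fell with MLN4924 in hypoxia (by limma, with 0 higher in both at an unadjusted p under 0.05). Hypoxia in DMSO raised 2 and lowered 2, and 2 and 7 without replicate 1. MLN4924 in normoxia raised 1 and lowered 2, or 0 and 2 with median-of-ratios scaling, and 1 and 5 without that replicate. With all libraries the shares of the 35 called either way were 31.4%, 22.9%, 11.4% and 8.57%, in the order of comparisons given. For all tested genes they were 28.2%, 25.5%, 33.2% and 20%. Without DMSO hypoxia replicate 1 the last 2 of these were 38.7% and 34.2%. H2bc4 had means of 35.2 ± 0.904, 29.9 ± 7.51, 20.4 ± 2.02 and 8.04 ± 0.415 FPKM in the group order above, and the linker histone H1f2 33.2 ± 1.87, 17.8 ± 3.79, 23.6 ± 1.47 and 7.01 ± 0.649. Some of these genes are near-identical copies within a histone family, so reads may be split among such copies. How polyadenylated RNA was handled is not given in the sources used here.

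**Figure D5:**
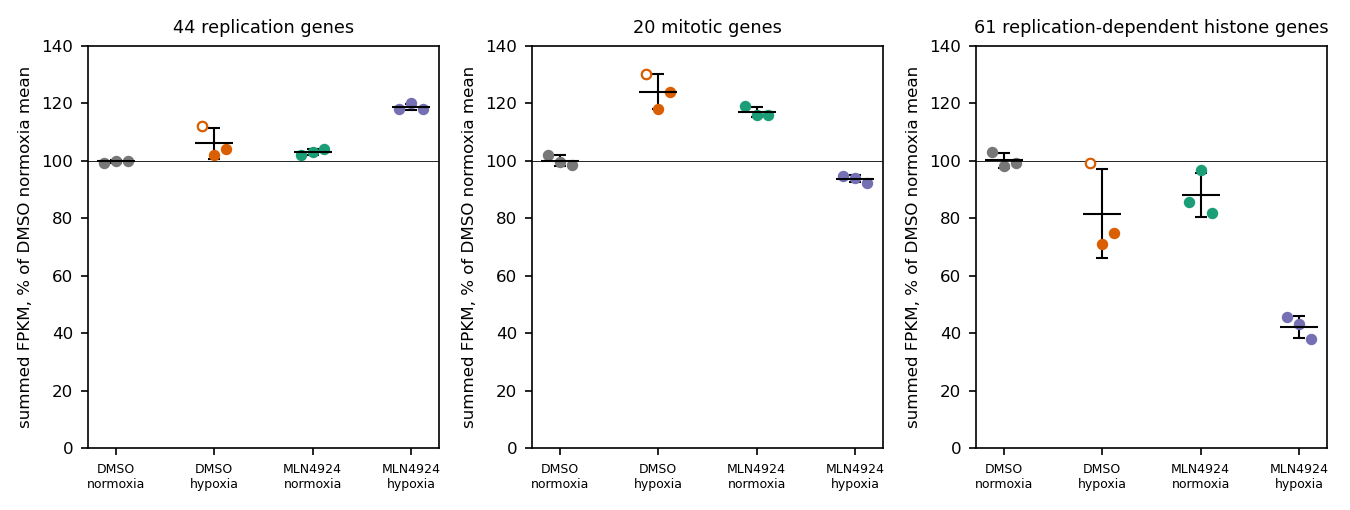
Summed FPKM of the 44 replication genes, 20 mitotic genes and 61 replication-dependent histone genes in each library (points), as a percentage of the DMSO normoxia mean, with group mean and SD of 3 replicates; the open point is DMSO hypoxia replicate 1. In MLN4924 hypoxia the replication genes are at 118 to 120%, the mitotic genes at 92.3 to 94.6% and the histones at 38.1 to 45.6%.

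Mitotic genes were measured beside the 44. Of 20, 13 rose and none fell with hypoxia in DMSO (11 and 1 with TPM scaling), 9 rose and none fell with MLN4924 in normoxia, none rose and 12 fell with MLN4924 in hypoxia, and none rose and 8 fell with hypoxia in MLN4924 (1 and 7 with median-of-ratios or TPM scaling). The same 4 comparisons without DMSO hypoxia replicate 1 gave 15 and 1, 14 and 0, 0 and 15, and 1 and 11. Of all tested genes 38.7%, 34.2%, 32.4% and 42.6% were then called either way. The interaction was lower for 10 of 20, and for 15 without that replicate, when it was called for 5.51% of all tested genes. With all libraries the shares of the 20 called either way were 65%, 45%, 60%, 40% and, for the interaction, 50%. For all tested genes they were 33.2%, 20%, 25.5%, 28.2% and 1.88%. The summed level of the 20 was 1202 ± 22.1, 1493 ± 70.5, 1402 ± 22 and 1125 ± 14.6 FPKM in the group order above (SD, n = 3), highest after either treatment alone and lowest after both. Cdc20, the activator of the anaphase-promoting complex, had an interaction of -0.97 ± 0.08 (SE, limma adjusted p = 0.00143), and the kinase gene Aurka -0.92 ± 0.10 (SE, limma adjusted p = 0.00198). The median interaction was -0.65 for the 20 mitotic genes, 0.12 for the 44 replication genes and 0.02 for all tested genes.

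Among 10 licensing genes, hypoxia in DMSO raised 1, Gmnn, and lowered 1, or 2 and 0 with median-of-ratios scaling. Gmnn encodes geminin, the inhibitor of Cdt1, and its difference was 0.95 ± 0.15 (SE, limma adjusted p = 0.00112), and 0.73 (limma adjusted p = 6.07e-05) without DMSO hypoxia replicate 1. Hypoxia in MLN4924 raised 3 and lowered 1, MLN4924 in hypoxia raised 2 and lowered none, and limma called none for MLN4924 in normoxia (3 higher and 1 lower at an unadjusted p under 0.05). Leaving out DMSO hypoxia replicate 1, MLN4924 raised 5 and lowered 1 in normoxia, where 34.2% of all tested genes were called, and raised 4 in hypoxia. Among 30 fork accessory genes the counts higher and lower were 8 and 2 for hypoxia in DMSO, 5 and 3 for MLN4924 in normoxia (3 and 3 with TPM scaling), 10 and 2 for MLN4924 in hypoxia, and 8 and 2 for hypoxia in MLN4924 (10 and 1 with median-of-ratios scaling). With that replicate left out, these were 8 and 3, 8 and 4, 11 and 3, and 12 and 3, while 38.7%, 34.2%, 32.4% and 42.6% of all tested genes were called. In the same order of comparisons, 33.2%, 20%, 25.5% and 28.2% of all tested genes were called either way with all libraries. The licensing genes were called in 20%, 0%, 20% and 40%, and the fork accessory genes in 33.3%, 26.7%, 40% and 33.3%. For hypoxia in DMSO both lists were thus near or below the background. Rnaseh2a, the catalytic subunit of ribonuclease H2, rose with hypoxia in MLN4924 from 68.2 ± 6.9 to 126 ± 13.7 FPKM, by 0.88 ± 0.10 (SE, limma adjusted p = 1.89e-04). Top1, the topoisomerase that relieves twist ahead of the fork, fell with hypoxia by 0.70 ± 0.06 in DMSO and by 0.67 ± 0.06 in MLN4924 on the log2 scale (SE, limma adjusted p = 2.87e-05 and 4.75e-05).

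Of 10 further nucleotide supply genes, hypoxia raised 2 and lowered 5 in DMSO and raised 3 and lowered 4 in MLN4924, while MLN4924 raised 2 and lowered none in normoxia and raised 5 and lowered none in hypoxia. In the fit without DMSO hypoxia replicate 1, hypoxia raised 2 and lowered 7 in DMSO and raised 4 and lowered 6 in MLN4924, and MLN4924 raised 6 in normoxia and 8 in hypoxia. Samhd1, which degrades deoxynucleotides, fell with hypoxia from 44 ± 1.12 to 24.6 ± 1.4 FPKM in DMSO and from 43 ± 2.52 to 27.4 ± 0.91 in MLN4924 (SD, n = 3). Dck, the deoxycytidine kinase, rose from 25 ± 0.304 to 40.9 ± 7 and from 25.7 ± 1.11 to 41.5 ± 0.875. Of 20 S phase control genes, hypoxia raised 5 and lowered 1 in DMSO (5 and 3 with TPM scaling), and raised 5 and lowered 3 in MLN4924. MLN4924 raised 4 and lowered 2 in normoxia (2 and 2 with TPM scaling) and raised 3 and lowered 4 in hypoxia. Without that replicate these 4 pairs were 6 and 2, 6 and 4, 5 and 4, and 4 and 5. Of all tested genes 38.7%, 42.6%, 34.2% and 32.4% were then called either way. In the same order of comparisons, 33.2%, 28.2%, 20% and 25.5% of all tested genes were called either way with all libraries. The further nucleotide supply genes were called in 70%, 70%, 20% and 50%, and the S phase control genes in 30%, 40%, 30% and 35%. The S phase control genes were thus below the background for hypoxia in DMSO. Cdk2, the S phase cyclin-dependent kinase, rose with hypoxia by 0.67 ± 0.06 in DMSO and by 0.97 ± 0.06 in MLN4924 (SE, limma adjusted p = 2.11e-05 and 2.32e-06). E2f1, a transcription factor of S phase genes, rose from 22.6 ± 2.26 to 40.4 ± 4.85 FPKM in DMSO and from 20.5 ± 1.94 to 36.6 ± 2.67 in MLN4924.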

How the data were processed

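Per the submitters' processing notes, the authors used fastp, STAR and RSEM 1.3.3 with mouse build mm39 and deposited 1 table of FPKM values. Which step each tool served, the strand setting and the RNA enrichment are not given in the sources used here. FPKM keeps no read counts, so depth is unknown and no counting interval is given. log2(FPKM + 1) was fitted in limma 3.58.1 (R 4.3.3) over all 4 groups, with an intensity trend in the prior variance, for the 12311 genes that reached 1 FPKM in 3 or more libraries. Adjusted p-values are Benjamini-Hochberg per comparison over all of these, with 0.05 as the threshold. A fold on this scale understates changes of low genes. The p-values set each difference against the spread between the 3 libraries of a group, pooled over all 4 groups and moderated by the prior. For a single value, 3 libraries against 3 cannot reach an exact permutation p below 0.1. The fit was checked on simulated data. The 44 genes, the other lists and the comparisons were chosen with earlier results of these data known. Values per library are given for genes in the first 5 by absolute log2 difference in any comparison among called genes whose higher group averaged 5 FPKM or more. Genes of other lists are named only if called with at least a 1.5-fold change in some comparison, and many that met this are not named. Symbols not in the table, such as Ctps1, were not analysed here. Transcript lengths and exon overlaps came from GENCODE on GRCm38 by symbol. Pseudocount, filter, scaling, prior, weights, block and leaving out each library were the alternatives.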

Additional observations from a re-analysis of the deposited data

Results flagged for a closer look

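The effect of hypoxia differed between MLN4924 and DMSO, by a test of that difference, for 4 of the 44 genes. It was 0.49 for Mcm2, 0.30 for Mcm4, 0.38 for Lig1 and -0.80 for Dbf4, as the log2 effect with MLN4924 minus that with DMSO. The calls of Mcm2, Mcm4 and Lig1 were lost in 9, 10 and 9 of the 12 fits that left out 1 library. They were also lost without the intensity trend (limma adjusted p = 0.0544, 0.0996 and 0.0833) and with the replicate block (0.0518, 0.0839 and 0.074, by the same test). The call of Dbf4 was kept in all settings tried. The cause of these differences was not tested.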

How the results depend on the processing

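FPKM values give no depth, so precision at low levels is not known. No paired analysis is used in the report: same-numbered libraries did not deviate together (correlations -0.0697 to 0.0993 over 18 pairs, 0 over 0.1). With the replicate block, limma called 0 of the 44 higher (14 at an unadjusted p under 0.05) and 1 lower in the interaction, and 132 genes in all. For hypoxia in DMSO, 13 of the 44 rose with median-of-ratios scaling, and fitting only the 2 groups compared gave 2 higher, 1 lower and 2224 genes in all. For MLN4924 in normoxia, array weights gave 12 higher, 12 lower and 4524 in all, and the 2 groups alone 4068 in all. For MLN4924 in hypoxia the 2 groups alone gave 7 higher and 1264 in all. For hypoxia in MLN4924, 5 fell under either of these settings, and array weights called 5339 in all. The interaction was higher for 5 with TPM scaling, 0 without the intensity trend (15 at an unadjusted p under 0.05) and 10 with array weights, which also gave 2 lower and 843 in all. Leaving out 1 library gave, for hypoxia in DMSO, 5 to 11 of the 44 higher, 4 to 7 lower and 3017 to 4768 genes in all. For MLN4924 in normoxia it gave 3 to 11, 1 to 11 and 1676 to 4215, and for MLN4924 in hypoxia 10 to 21, 1 to 2 and 2151 to 3993. For hypoxia in MLN4924 it gave 14 to 26, 3 to 5 and 2523 to 5242, and for the interaction 0 to 9, 1 to 1 and 90 to 678. The highest value of most of these ranges is that without DMSO hypoxia replicate 1. Uhrf1 with hypoxia in DMSO ranged from -0.55 to 0.23 on the log2 scale, and reversed from -0.28 to 0.23 (limma adjusted p = 0.0305) without that replicate. The cause was not tested. No called gene of the 44 changed sign under the scaling alternatives.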
